A study of Mus musculus with 2 samples.

Results

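The alternative activation genes are 9 genes, of 32285 counted, that are widely used to mark macrophages exposed to the type 2 cytokines IL-4 and IL-13. They were taken by symbol from a given list (Retnla, Chil3, Arg1, Mrc1, Clec10a, Mgl2, Il4ra, Pdcd1lg2 and Cbr2), with no threshold on a measured value, and all 9 had UMIs in these cells. Their levels were followed across the macrophage, monocyte and dendritic cells of mouse skin, to see where each gene was highest and whether the genes moved together. The cells came from shaved dorsal skin of male WT mice at 9 or 108 weeks of age. For each age, 2 mice were pooled, the F4/80+ cells with much MHC class II on their surface were collected by flow cytometry, and 1 droplet library was read from the 3' ends of transcripts. Both libraries share 1 count matrix, in which a barcode suffix (1 or 2) separates them. No source used here ties a suffix to an age, so the libraries are named by their suffix, ages are not compared, and with pooled mice and 1 library per suffix no p-value was computed.

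IL-4 and IL-13 act through the IL-4 receptor alpha chain, which Il4ra encodes, and through the transcription factor STAT6. In cultured mouse macrophages this raises the secreted proteins RELMalpha (Retnla) and Ym1 (Chil3), the enzyme arginase 1 (Arg1), the sugar-binding receptors CD206 (Mrc1), CD301a (Clec10a) and CD301b (Mgl2), and the inhibitory ligand PD-L2 (Pdcd1lg2). Cbr2 encodes a carbonyl reductase that is often listed with skin and other tissue-resident macrophages. Resident macrophages of the dermis carry CD206 in undisturbed skin, and CD301b is also a known marker of a population of dermal dendritic cells.

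A cell was kept with at least 500 genes, at least 1000 UMIs (distinct RNA molecules) and at most 10% mitochondrial UMIs. This left 3797 of 5257 barcodes, 2396 of the library with suffix 1 and 1401 of the library with suffix 2, with median depths of 10761 and 11196 UMIs. The libraries shared 1 barcode sequence, and none among the kept cells. Clusters were drawn without the 9 genes and named from fixed markers of other genes, so a name ends in "like". There were 567 resident macrophage-like, 267 monocyte-like, 210 lipid-associated macrophage-like, 187 inflammatory macrophage-like, 284 Dcstamp macrophage-like (marked by Dcstamp, Cd226 and Fn1) and 470 dendritic-like cells, and the first 5 of these groups together are called macrophage-like. Together with 21 mature dendritic-like cells they make up the 2006 myeloid cells, and 1791 other cells, mostly fibroblasts and endothelial cells, passed in spite of the sort.

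Clusters were named from the markers, so marker levels describe the groups and are no test of the names. Alone of the resident markers, Timd4 was higher in dendritic-like cells (93.3 CPM) than in resident cells (35.6 CPM). The 9 general macrophage markers summed to between 3611 CPM (UMIs of the gene or list per 1000000 UMIs of the group) in the Dcstamp group and 13029 CPM in the resident group, against 802 CPM in the dendritic-like cells. In the Dcstamp group, the macrophage markers Fcgr1 and Mertk stood at 11.7 and 3.50 CPM and the dendritic marker Tnip3 at 1055 CPM, so that its name rests on its 3 own markers. The lipid-associated group scored 2.98 on its own list and 2.88 on the monocyte list (mean log2 excess over the median cluster), a narrow lead. Intervals below are exact 95% Poisson or binomial intervals and cover counting error only.

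Over the 5 macrophage-like groups and the dendritic-like cells, the genes reached their highest levels in different cells. Mrc1, Clec10a, Il4ra and Cbr2 were highest in resident macrophage-like cells, Retnla in Dcstamp macrophage-like cells, Chil3 in lipid-associated and monocyte-like cells, and Mgl2 and Pdcd1lg2 in dendritic-like cells. Arg1 was close to absent. In each of these cases but Arg1 both libraries gave the same leading group or pair of groups.

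**Figure D1:**
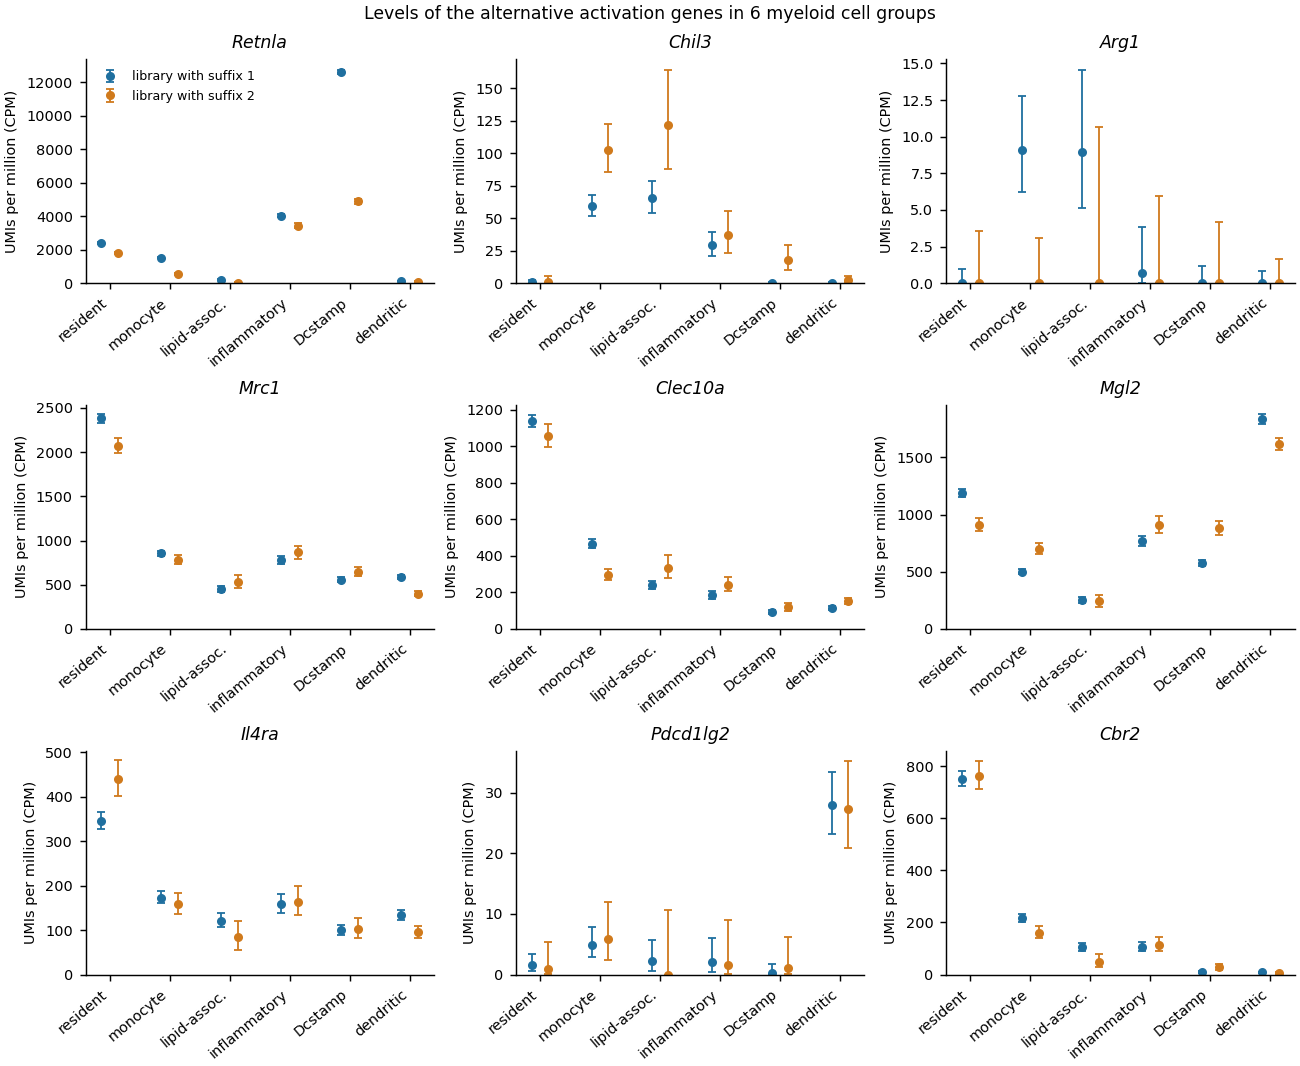
Levels of the 9 genes (CPM, linear axes from 0) in the 6 myeloid cell groups, with one point per library and exact 95% Poisson intervals. Mrc1, Clec10a, Il4ra and Cbr2 peak in the resident group, Retnla in the Dcstamp group at 12635 and 4897 CPM, Chil3 in the monocyte and lipid-associated groups, and Mgl2 and Pdcd1lg2 in the dendritic-like cells.

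Some of the genes carry the STAT6-type spacing near their start, that is TTC and GAA with any 4 bases between them, a pattern that reads the same on both strands. RefSeq promoter windows of 250 bases before and 50 after the start (GRCm38) were at hand for 7 of the 9 genes, and not for Arg1 and Clec10a. The spacing was found in 3 of these windows, those of Retnla, Pdcd1lg2 and Cbr2, against 6.95% of 32851 promoters. The stretches with the 10-base match are shown because these genes peaked in 3 different cell groups, Dcstamp macrophage-like, dendritic-like and resident macrophage-like. Capitals mark the match, which begins 145 bases before the RefSeq start of Retnla, 82 bases before that of Pdcd1lg2 and 24 bases after that of Cbr2. Retnla is shown from chr16:48842359-48842550 (plus strand), upstream of both its RefSeq and its GENCODE start, Pdcd1lg2 from chr19:29410669-29410918 (plus strand) and Cbr2 from chr11:120731978-120732007 (minus strand).
Retnla: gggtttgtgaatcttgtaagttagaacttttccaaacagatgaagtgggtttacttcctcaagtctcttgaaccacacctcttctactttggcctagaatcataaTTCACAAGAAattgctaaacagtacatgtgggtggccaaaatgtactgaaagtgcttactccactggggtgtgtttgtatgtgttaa
Pdcd1lg2: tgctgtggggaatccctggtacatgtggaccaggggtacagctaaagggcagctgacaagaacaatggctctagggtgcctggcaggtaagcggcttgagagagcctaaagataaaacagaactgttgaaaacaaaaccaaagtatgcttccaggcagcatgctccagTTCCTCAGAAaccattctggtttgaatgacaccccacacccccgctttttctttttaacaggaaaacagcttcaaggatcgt
Cbr2: catctcttgcTTCGGAAGAAgctggtgtca
A match describes the letters in the window and is no evidence of binding, and the windows of Chil3, Mrc1, Mgl2 and Il4ra did not hold the spacing.

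Retnla (ENSMUSG00000061100, chr16:48842551-48844461, plus strand) encodes RELMalpha, a secreted protein of alternatively activated macrophages. In the Dcstamp macrophage-like cells it stood at 12635 CPM in the library with suffix 1 and 4897 CPM in that with suffix 2. Inflammatory macrophage-like cells held 4046 and 3436 CPM, resident cells 2398.5 and 1802 CPM, and monocyte-like cells 1531 and 545 CPM. The order of these 4 groups was the same in both libraries, and each step in the pooled order lay outside its counting interval. Lipid-associated cells had 213 and 37.6 CPM and dendritic-like cells 132 and 100.2 CPM, an order that turned between the libraries. In all 6 groups the library with suffix 1 was the higher one, with log2 ratios of the library with suffix 2 over the other between -0.24 in inflammatory cells and -2.499 in lipid-associated cells. Age and library cannot be told apart here.

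Within every group Retnla sat in a part of the cells. The 10% of myeloid cells with most Retnla held 83.3% of its UMIs, and 1 Dcstamp macrophage-like cell had 1251 UMIs. The median resident macrophage-like cell had none, while 38 of 567 resident cells had at least 100 UMIs. In the Dcstamp group 117 of 284 cells reached 100 UMIs and the median cell had 48.1 per 10000 UMIs (65.6 and 1.65 in the libraries with suffix 1 and 2). With each cell thinned to 2000 UMIs, a UMI of Retnla was found in 70.8% of Dcstamp macrophage-like cells (65.0 to 76.1%), 31.4% of resident cells (27.5 to 35.5%), 33.0% of inflammatory cells (26.3 to 40.3%) and 28.1% of monocyte-like cells (22.8 to 34.0%). The resident, inflammatory and monocyte-like shares overlap in their intervals, while their levels differ. In keratinocytes the thinned share was 0 of 73 cells, which allows a share of cells with a UMI of up to 4.11% (3 of 73 cells, exact 95% limit 4.93%). Their unthinned share was 24.7% at a median of 20204 UMIs. Dendritic-like cells had 3.90% after thinning and 18.5% before, at a median of 14234 UMIs. Of the 801 Retnla UMIs in dendritic-like cells, 95.01% lay in 10% of the cells, and 3 cells had at least 100 UMIs.

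**Figure D2:**
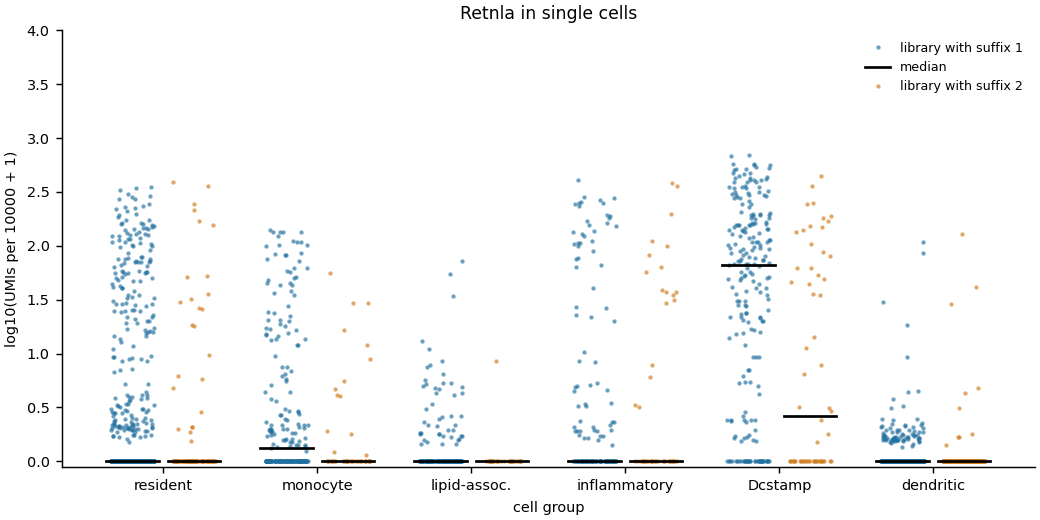
Retnla in single cells of the 6 groups, as log10 of UMIs per 10000 plus 1, with one point per cell, coloured by library, and a black bar at the median of each library. Most resident, inflammatory and dendritic-like cells lie at 0 while some resident and inflammatory cells reach the range of the Dcstamp group, whose medians are 65.6 and 1.65 per 10000.

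Chil3 (ENSMUSG00000040809, chr3:106147554-106167564, minus strand) encodes the chitinase-like protein Ym1. It was highest in lipid-associated macrophage-like cells, with 65.6 and 121 CPM, and in monocyte-like cells, with 59.2 and 103 CPM. The log2 ratio of these groups to each other was 0.09 (-0.19 to 0.37), a difference not detectable at this depth. Inflammatory cells followed with 29.1 and 36.9 CPM. Resident macrophage-like cells, which led for 4 of the other genes, had 4 UMIs of Chil3 in all, 0.795 and 0.968 CPM, and dendritic-like cells had 5. The 16 UMIs of the Dcstamp group all lay in 1 cell of the library with suffix 2. Chil3 reads may be split with its close copy Chil4, whose 3' end is 91.8% identical over 501 bases, but Chil4 had 0 UMIs in the kept cells.

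Arg1 (ENSMUSG00000019987, chr10:24915221-24927484, minus strand) encodes arginase 1, which turns arginine into ornithine and urea. It had 65 UMIs among 50800888, of which 33 were in monocyte-like and 16 in lipid-associated cells. All of these were in the library with suffix 1, at 9.08 and 8.97 CPM, and none was in the library with suffix 2, where 3 counts would correspond to 2.502 and 8.68 CPM. The 567 resident, 284 Dcstamp and 470 dendritic-like cells had no UMI of Arg1. For the resident cells 3 counts correspond to 0.624 CPM, so that Arg1 was not detectable there. Of the other arginine genes, Arg2, the mitochondrial arginase, reached 36.8 CPM in inflammatory macrophage-like cells and 0.624 CPM in resident cells, and Nos2, which makes nitric oxide from arginine, had 7 UMIs in all myeloid cells.

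Mrc1 (ENSMUSG00000026712, chr2:14229392-14332057, plus strand) encodes the mannose receptor CD206. Resident macrophage-like cells had 2383 CPM in the library with suffix 1 and 2073 CPM in that with suffix 2. Every other group lay well below, with monocyte-like cells at 854 and 779 CPM, inflammatory cells at 780 and 865 CPM, and dendritic-like cells at 588 and 398 CPM. It was the most widespread of the genes, with a UMI in 90.4% of myeloid cells, and the 10% of cells with most held 32.2% of its UMIs. Monocyte-like and inflammatory cells did not differ beyond counting error (log2 ratio 0.05, -0.03 to 0.14), and the order of Dcstamp, dendritic-like and lipid-associated cells changed between libraries. The microRNA gene Mir511 lies within Mrc1 on the same strand and is not in the matrix.

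Clec10a (ENSMUSG00000000318, chr11:70156197-70170834, plus strand) and Mgl2 (ENSMUSG00000040950, chr11:70130329-70137550, plus strand) are neighbours on chromosome 11 and encode the galactose-binding lectins CD301a and CD301b. Clec10a was highest in resident macrophage-like cells, at 1139 and 1057 CPM, and fell to 94.2 and 119 CPM in the Dcstamp group and 114 and 152 CPM in dendritic-like cells. Mgl2 had the opposite extreme, with 1835 and 1615 CPM in dendritic-like cells. Resident cells came second for Mgl2, with 1187 and 912 CPM, and lipid-associated cells last, with 251 and 243 CPM. After thinning, 83.5% of dendritic-like cells (79.8 to 86.8%) and 80.9% of resident cells (77.3 to 84.1%) had a UMI of Mgl2, while for Clec10a these shares were 15.8% (12.6 to 19.5%) and 81.1% (77.5 to 84.3%). The pair of neighbours was therefore alike in how many resident cells had a UMI and unlike in dendritic-like cells.

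Cbr2 (ENSMUSG00000025150, chr11:120729489-120732114, minus strand) encodes carbonyl reductase 2. It was restricted more narrowly than Mrc1, at 751 and 764 CPM in resident cells, 217 and 161 CPM in monocyte-like cells, 8.36 and 28.1 CPM in the Dcstamp group and 8.64 and 5.46 CPM in dendritic-like cells. Its pooled level in resident cells was 99.4 times that in dendritic-like cells, whereas for Mrc1 the highest group was 4.996 times the lowest. Resident cells with a UMI made up 74.0% after thinning (70.1 to 77.7%), against 0.649% of dendritic-like cells (0.134 to 1.89%). The copy Gm11771, 98.9% identical over 268 bases of the 3' end, is not in the matrix. Among the resident clusters, one of 301 cells had more Cbr2 than the other of 266 cells in both libraries, 828 and 945 against 660 and 582 CPM. The same cluster was higher in Clec10a, with 1403 and 1481 against 825 and 632 CPM. Mrc1 (2657 and 2248 against 2057 and 1898 CPM) and Il4ra (400 and 595 against 281 and 285 CPM) were also higher in it. Mgl2 went the other way in both libraries, with 1126 and 812 against 1259 and 1012 CPM, and Retnla was higher in this cluster in both, with 3350 and 2033 against 1270 and 1570 CPM.

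Il4ra (ENSMUSG00000030748, chr7:125552120-125579474, plus strand) encodes the receptor chain through which IL-4 and IL-13 signal. Resident macrophage-like cells had 346 and 440 CPM, above all other myeloid groups in both libraries. Monocyte-like and inflammatory cells, at 173 and 158 and at 159 and 164 CPM, did not differ beyond counting error, and neither did dendritic-like and lipid-associated cells. Il4ra was the least restricted to myeloid cells, which held 59.9% of its UMIs, against between 76.9% for Arg1 and 96.02% for Clec10a. Endothelial cells had 212 CPM and pericytes or smooth muscle cells 202 CPM over both libraries.

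Pdcd1lg2 (ENSMUSG00000016498, chr19:29410919-29471161, plus strand) encodes PD-L2, a ligand of the inhibitory receptor PD-1. It had 183 UMIs in dendritic-like cells, 28.0 and 27.3 CPM, and 42 in all macrophage-like cells together. The 21 mature dendritic-like cells had 13 UMIs, 44.2 CPM (23.5 to 75.6 CPM). The groups below monocyte-like cells, which had 4.95 and 5.84 CPM, rest on 2 to 7 UMIs and cannot be ordered. The antisense gene A930007I19Rik overlaps Pdcd1lg2 and had 279 UMIs against 271, and since no source used here states whether counting used the strand, the UMIs of the pair cannot be told apart.

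Against dendritic-like cells, the genes divided. A gene was called where its CPM differed at least 2-fold in the same direction in both libraries, among genes with at least 20 UMIs. Of the 9 genes 4 were higher in macrophage-like cells, where 11.0% of all 11582 genes tested were, and 2 were lower, where 4.20% were. The 4 were Cbr2 (log2 ratios of 5.07 and 5.61), Retnla (5.05 and 4.46), Clec10a (2.15 and 1.55) and Chil3, which had no UMI in the dendritic-like cells of the library with suffix 1 and was at least 5.33 higher there and 4.46 higher in the other. The 2 were Mgl2 (-1.39 and -1.04) and Pdcd1lg2 (-3.59 and -3.48). Mrc1 (0.96 and 1.43) and Il4ra (0.55 and 1.15) were higher in macrophage-like cells in both libraries but passed the 2-fold limit in the library with suffix 2 alone, and Arg1 could not be compared in that library. The median pooled log2 ratio of the 9 genes was 1.96, and that of all genes tested 0.25. For Mgl2 the call ended when each cell was weighted equally (pooled log2 ratio -1.21), and Mrc1 was called in 7 of the 14 alternatives run.

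**Figure D3:**
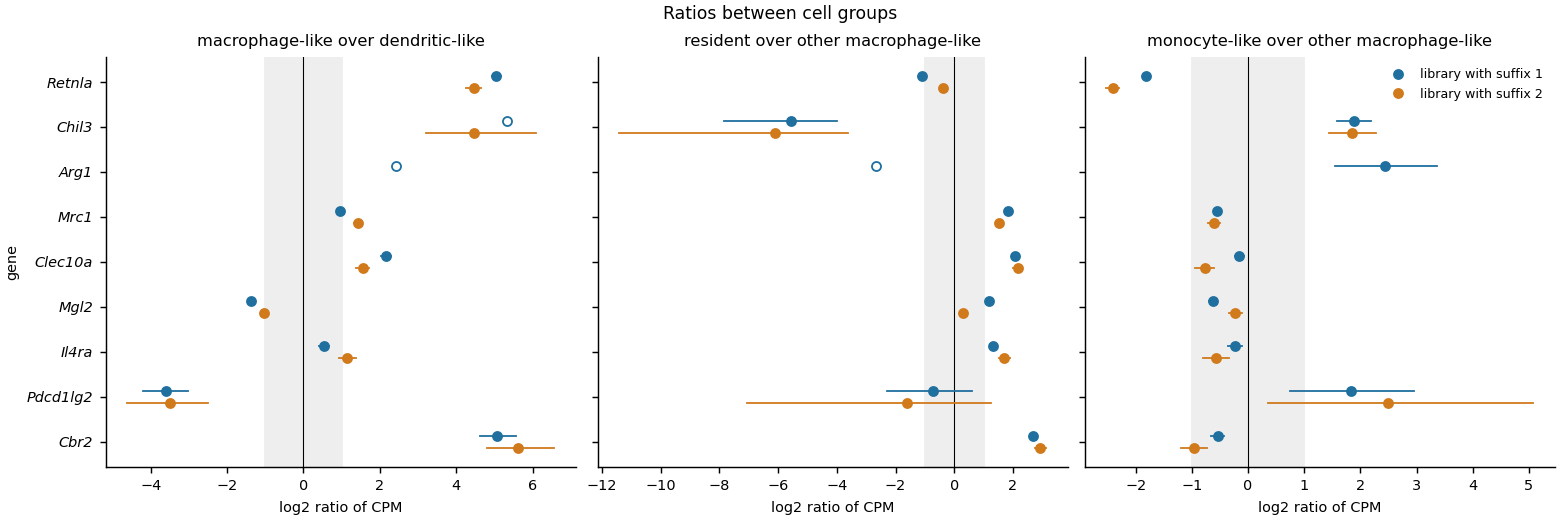
Log2 ratios of CPM for the 9 genes between cell groups, with one point per library and exact 95% intervals. The grey band spans ratios below 2-fold, open circles are bounds from a group with no UMI set to 3 counts, and a gene with no UMI in both groups has no point. Retnla, Chil3, Clec10a and Cbr2 lie right of the band and Mgl2 and Pdcd1lg2 left of it in the first panel, and Mrc1, Clec10a, Il4ra and Cbr2 lie right of it in the second.

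Within the macrophage-like cells, resident cells were higher in 4 of the 9 genes, where 5.04% of 11008 genes were, and lower in 1, where 5.85% were. The 4 were Cbr2 (2.69 and 2.93 in the libraries with suffix 1 and 2), Clec10a (2.08 and 2.15), Mrc1 (1.81 and 1.51) and Il4ra (1.31 and 1.71), and Chil3 was the lower one (-5.56 and -6.11, from 3 and 1 UMIs in resident cells, with intervals of -7.84 to -4.002 and -11.42 to -3.61). Retnla was lower in resident cells in both libraries, by 1.10 and 0.38, and did not pass. The other cells here include the Dcstamp group, where Retnla was highest (12635 and 4897 CPM). Resident cells, at 2398.5 and 1802 CPM, were below inflammatory cells (4046 and 3436 CPM). They were above monocyte-like cells (1531 and 545 CPM) and lipid-associated cells (213 and 37.6 CPM). In resident cells Mgl2 was higher, by 1.19 and 0.29, and passed in the library with suffix 1 alone. With the Dcstamp group left out, Mrc1, Clec10a, Il4ra and Cbr2 were again the 4 called, and the call of Mrc1 was lost under a stricter filter on cells.

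Monocyte-like cells were higher than the other macrophage-like cells in Chil3 (1.88 and 1.86) and Pdcd1lg2 (1.84 and 2.49), where 3.23% of all genes were higher, and lower in Retnla (-1.82 and -2.41), where 1.04% were lower. For Chil3 the other cells include the lipid-associated group, at 65.6 and 121 CPM against 59.2 and 103 CPM in monocyte-like cells. Resident cells (0.795 and 0.968 CPM) and the Dcstamp group (0 and 18.0 CPM) were below both. For Retnla the other cells include the Dcstamp group, at 12635 and 4897 CPM, and the call was not repeated without it. Monocyte-like cells, at 1531 and 545 CPM, were below resident and inflammatory cells and above lipid-associated cells (213 and 37.6 CPM). The Pdcd1lg2 ratio rests on 18 and 7 UMIs in monocyte-like cells. These calls depended on how cells were grouped: with the 9 genes among the variable genes the monocyte-like group shrank to 133 cells and neither Chil3 nor Pdcd1lg2 was called.

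Over the myeloid cells together, the genes did not move as a set. Pearson's r was taken on log values per 10000 UMIs over the 2006 myeloid cells. It serves as a description, since cells of 1 library are not independent replicates. The median over the 36 pairs of the 9 genes was 0.00103. Over the 28 pairs of the 8 genes found in at least 5% of these cells (all but Arg1) it was 0.0346. Over all pairs of the 8437 genes that met the same 5% limit it was 0.0104. The 8 genes were found in between 7.23% (Pdcd1lg2) and 90.4% (Mrc1) of the cells, and the 8437 genes were not matched to them in this. Of the 28 pairs, 7 had r above 0.2, 6 of them among Mrc1, Clec10a, Cbr2 and Il4ra and the other between Mrc1 and Mgl2, while 0.303% of all pairs did. The pair of Clec10a and Cbr2 was highest, at 0.63 (0.65 and 0.58 in the libraries with suffix 1 and 2), and that of Chil3 and Mgl2 lowest, at -0.25 (-0.26 and -0.20). Over the macrophage-like cells alone the highest pair was Mrc1 and Cbr2, at 0.62, and the lowest again Chil3 and Mgl2, at -0.24. The highest r of Retnla with another member over the myeloid cells was 0.15, with Mrc1.

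The values within single groups differed from those over the myeloid cells together. Within the 567 resident cells r was 0.40 for Mrc1 and Clec10a, 0.25 for Mrc1 and Cbr2 and 0.18 for Clec10a and Cbr2, all lower than over the myeloid cells together. Retnla was at -0.03 with Mrc1 and 0.11 with Clec10a there. In monocyte-like cells Mrc1 and Clec10a reached 0.63, with 0.62 and 0.69 in the 2 libraries. There 13 of the 28 pairs had r above 0.2, more than in any other group, against 1.005% of all pairs of genes. In the libraries with suffix 1 and 2 these were 12 and 15 pairs, against 1.191% and 17.03% of all pairs. The median of the 28 pairs was 0.169 (0.160 and 0.245), against 0.00855 over all pairs. In dendritic-like cells Mrc1 and Mgl2 reached 0.46. In inflammatory cells Chil3 and Mrc1 were at -0.39, from 139 and 48 cells with -0.34 and -0.51. After thinning, 27.7% of macrophage-like cells had a UMI of both Clec10a and Cbr2, where 18.2% would if the genes were found independently (62.0% against 60.02% within resident cells), and 1.24% had both Chil3 and Mgl2, where 2.64% would. No macrophage-like cell had more than 6 of the 8 genes after thinning, and resident cells most often had 4 of them (34.9% of 539 cells).

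**Figure D4:**
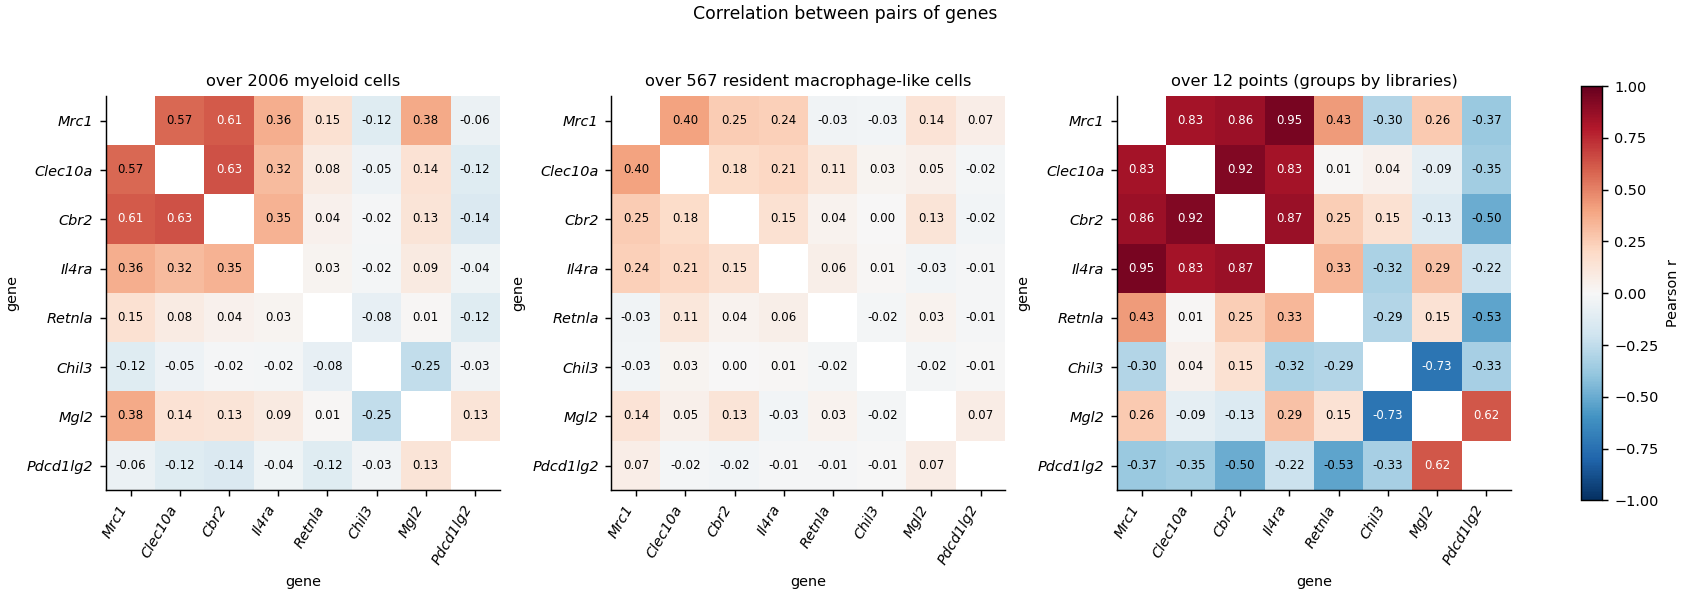
Pearson's r between pairs of 8 of the genes (Arg1 is left out) over all myeloid cells, over resident macrophage-like cells and over 12 points of 6 groups in 2 libraries. Mrc1, Clec10a, Cbr2 and Il4ra form a block of positive values in all 3 panels, and Retnla, Chil3, Mgl2 and Pdcd1lg2 stay largely outside it.

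The levels per group gave the same division. Over 12 points, the 6 groups in each of 2 libraries, on log2(CPM + 10), the median r over 28 pairs was 0.0948, against 0.0956 over all pairs of 8742 genes. All 6 pairs among Mrc1, Clec10a, Il4ra and Cbr2 had r between 0.83 and 0.95, led by Mrc1 and Il4ra, and the seventh pair above 0.5 was Mgl2 and Pdcd1lg2 at 0.62. Of all pairs of genes 14.9% lay above 0.5. Chil3 and Mgl2 were lowest at -0.73. The 12 points share 2 libraries, so these values have no p.

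The genes nearest to each member in this measure were sought among 8741 genes, so that a closer gene than the best of 7 other members could be found by number alone. Cbr2 was most like Selenop (r 0.99), the selenoprotein carrier, Thbd and Rnase4, and 103 genes were more like it than Clec10a, the nearest member. Mrc1 was most like Aldh7a1, Gm10134 and Eif4e (0.97 to 0.99), Clec10a like Hyal2, P2rx7 and Naa80 (0.96 to 0.98), and Il4ra like Hnrnph1, Selenbp1 and Cnrip1 (0.97). Retnla was most like Rnf145, Id2 and Lilr4b (0.91 to 0.93), and Chil3 like Bnip2, Rngtt and Sik3 (0.94 to 0.95). Mgl2 was most like Hk2, Pdlim5 and Ubxn4 (0.91 to 0.93), and Pdcd1lg2 like Pgf, H2-Oa and Kynu (0.99 to 1.00). Of the 8741 genes, 16 were nearer to Il4ra than its nearest member, 19 to Mrc1, 37 to Clec10a, 283 to Mgl2, 500 to Pdcd1lg2, 943 to Retnla and 4958 to Chil3.

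Genes of the wider IL-4 and IL-13 pathway were set beside the 11.0% of all genes called higher and 4.20% called lower in macrophage-like cells. With 9 genes tested in each of the 2 lists below, counts of 1 and 2 are too small to set apart from these shares. Of 12 signalling genes, 9 could be tested between macrophage-like and dendritic-like cells, and 1, the kinase gene Jak2, was lower (94.8 against 293 CPM) while none was higher. Stat6, the transcription factor itself, stood at 58.8 CPM in macrophage-like and 54.2 CPM in dendritic-like cells. The cytokine genes lay elsewhere, with Il4 at 803 CPM and Il13 at 646 CPM in the 32 mast cells, and neither had a UMI in dendritic-like cells. Of 9 transcription factors of the programme 2 were higher in macrophage-like cells, Cebpb (2571 against 823 CPM) and Pparg (40.9 against 18.1 CPM), and none was lower.

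Other genes known to answer IL-4 or IL-13 in mouse macrophages also divided. The list has 19 genes, of which Fn1, Ccl17, Ccl22 and Cd209a had served to name the cells and are left out. Of the other 13 that could be tested, 5 were higher in macrophage-like cells and 4 lower, beside the same 11.0% and 4.20% of all genes. The chemokine genes Ccl8 (2916 against 116 CPM) and Ccl24 (188 against 4.85 CPM) were higher and peaked in resident cells, at 8729 and 499 CPM. The lectin gene Cd209e (27.5 against 176 CPM) and Alox15 (0.280 against 10.5 CPM), a lipoxygenase, were lower. Among 13 classical activation genes, 11 of them tested, 2 were higher, Tnf (114 against 38.7 CPM) and Cxcl10, and 2 lower, Il1b (1584 against 4402 CPM) and Cd80. Resident cells were lower than other macrophage-like cells in 5 of these 11 (Il1b, Il6, Cxcl9, Cxcl10 and Ptgs2) and higher in none, beside 5.85% of all genes lower and 5.04% higher. The other cells here include the inflammatory group, which was named from inflammatory genes such as Cxcl2, Cxcl3 and Il1a. The calls were not repeated without that group.

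Outside the myeloid groups Il4ra was widespread, with a UMI in 69.2% of endothelial and 55.9% of fibroblast cells (29.3% and 17.8% after thinning). Some UMIs of other members there sat in few cells. Endothelial cells of the library with suffix 1 had 2091 UMIs of Retnla, 82.7% of them in 5 of 136 cells that also held 120 UMIs of the macrophage marker C1qa. All 139 UMIs of Chil3 in endothelial cells of the library with suffix 2 lay in 1 cell. In mast cells Clec10a stood at 483 and 432 CPM, with a UMI in 8 of 12 and 9 of 20 cells. Of these UMIs, 93.3% and 88.2% lay in 5 cells of each library. All C1qa UMIs of the mast cells (22 and 11) lay in 1 of these 5 cells in each library. No mast cell had more than 18 of the 45 and 13 of the 34 Clec10a UMIs. The 9 macrophage markers summed to 2189 and 1195 CPM in the mast cells. Keratinocytes had a UMI of Cbr2 in 17 of 51 and 8 of 26 cells. An unnamed cluster of 33 cells led by cell-cycle genes, and counted in none of the groups, had Retnla at 2641 CPM. The part of doublets or of RNA from macrophages in these values was not tested.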

How the data were processed

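The authors deposited UMI counts per gene and barcode as 1 matrix of whole numbers, without normalization, made with Cell Ranger 4.0.0 on mm10 per the labels' processing notes. No source used here states the annotation, the strand setting or an earlier filter on barcodes. The 9 genes, the marker lists and the pathway lists were chosen with earlier results of these data known. Both ages were pooled because no source used here maps a suffix to an age.

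Cells were scaled to 10000 UMIs and logged, and 2000 variable genes without the 9 genes, 30 components, 15 neighbours and Leiden resolution 1 gave 27 clusters (Python 3.11.15, scanpy 1.11.5, leidenalg 0.10.2). A cluster was named from 22 marker lists where at least 3 markers reached 20 CPM and 2 times the median cluster. UMIs were summed per group and library and divided by the group total (CPM). A zero in a ratio was set to 3 counts. The calls were tested on simulated data. Doublets were kept, and an alternative removed the 42 cells with a Scrublet score of at least 0.2. Named genes are the 9 members, the 3 genes most like each member among genes with at least 100 myeloid UMIs, the extreme pairs and the listed pathway genes; those printed from the lists were picked to show each direction. Positions are from GENCODE vM21 (GRCm38), where 32235 of 32285 identifiers were found. Alternatives changed the filter, resolution, grouping, weighting, library, fold limit, pseudocount and correlation.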

Additional observations from a re-analysis of the deposited data

Results flagged for a closer look

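Differences between the libraries went in opposite directions in different cell groups for 5 of the genes. The log2 ratio of the library with suffix 2 over that with suffix 1 was 0.61 for Mgl2 in Dcstamp macrophage-like cells and -0.38 in resident cells, 1.75 for Cbr2 in Dcstamp and -1.12 in lipid-associated cells, 0.49 for Clec10a in lipid-associated and -0.66 in monocyte-like cells, 0.35 for Il4ra in resident and -0.49 in dendritic-like cells, and 0.24 for Mrc1 in lipid-associated and -0.56 in dendritic-like cells. These pairs are the groups with the highest and lowest ratio among those whose counting interval excludes 0. The difference between groups was not tested, since there is 1 library per suffix, and the age of each library is not known.

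The 1460 barcodes that the filter left out held the 9 genes at 756 CPM together, led by Retnla at 238 CPM and Mrc1 at 207 CPM.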

How the results depend on the processing

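The log2 ratio of macrophage-like over dendritic-like cells changed sign for no member, but 33 of these values moved and 56 did not: Retnla lay between 4.08 and 8.08, Chil3 between 2.59 and 5.74, Mrc1 between 0.35 and 1.43 and Cbr2 between 3.96 and 7.62 (6.33 with likely doublets removed). In resident against other macrophage-like cells, Pdcd1lg2, lower at -0.71 and -1.60, was called higher with groups from each single cell. The 4 genes higher in macrophage-like than dendritic-like cells became 3 to 6 over the alternatives, and Retnla, Chil3 and Cbr2 were among them in each. Pdcd1lg2 stayed lower in macrophage-like cells in each, and Mgl2 was lost, leaving 1 of the 2 lower genes, with the mean over cells of CPM, a 3-fold limit, mature dendritic-like cells counted as dendritic-like, or monocyte-like cells in neither group (the last 2 chosen after seeing the data). Of the 4 genes higher in resident cells, 2 remained at a 3-fold limit, Clec10a and Cbr2. Of the 2 genes higher in monocyte-like cells, 1 remained under the stricter filter, at resolutions 0.5 and 2, with groups from each single cell and in the library with suffix 2 alone, and 0 with the members among the variable genes. The median r over cells, 0.00103, moved to 0.0186 as Spearman's rho, 0.0283 in the library with suffix 2, 0.024 under the stricter filter and 0.0346 over the 8 widely found genes. The median r over groups, 0.0948, moved to 0.0179 with a pseudocount of 100, -0.0349 at resolution 0.5, where fewer groups enter, and 0.483 over all named cell groups, an alternative chosen after seeing the data. The cause of these shifts was not tested. No paired analysis was possible because each age has 1 library and no result comes from a test across samples. Depth limits Arg1, with 65 UMIs, and Pdcd1lg2, with 271, most.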
